A study of Mus musculus with 30 samples.

Results

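The 10 genes described here encode the killing machinery of cytotoxic lymphocytes. They are the granzymes Gzma, Gzmb, Gzmc and Gzmk, the pore protein gene Prf1, the granule-associated genes Nkg7 and Ctsw, the death ligand gene Fasl, and the granzyme inhibitors Serpinb9 and Serpinb6b. They were chosen by symbol and followed through every sorted CD4 T cell group of the series. A count was present for 22560 genes in at least 1 of the 22 QuantSeq libraries and for 24573 genes in at least 1 of the 8 RNA-seq libraries. Of the 10, 9 passed the filter on low counts in QuantSeq and 10 passed it in RNA-seq. The one that did not pass was Prf1, which had no QuantSeq count in any library, while Gzmc and Gzmk passed through 2 libraries each.

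Granzymes are serine proteases stored in secretory granules together with perforin, the product of Prf1, which opens the membrane of a target cell so that granzymes reach its cytosol. Fas ligand kills by another route, through the receptor Fas on the target, and serpins of clade B protect the cell that carries granzymes from its own enzymes. These genes are best known in CD8 T cells and natural killer cells, and some CD4 T cells also use them, whereas T follicular helper (TFH) cells are known for helping B cells and TH2 cells for the type 2 cytokines.

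The study sorted helper T cells from spleens of 8-week-old C57BL/6 mice and made libraries from 10 ng of total RNA, 22 by QuantSeq, which counts tags near the 3′ end of a transcript, and 8 by whole-transcript RNA-seq. TFH2 cells carried the genotype label OTII Tg IL-4BacTg x OTII Tg and were sorted as CD4+CD45.2+PD1+ in 3 CXCR5 gates, with 2 QuantSeq libraries each for lo, int and hi. TFH cells came from OTII Tg mice through the same gates, with 3 QuantSeq libraries for lo, 2 for int and 3 for hi, and 2 RNA-seq libraries for hi. Bcl6KO cells (Bcl6f/fCd4cre x OTII Tg, sorted CD4+hCD2+) and Il4KO cells (Il4-/- x OTII Tg, sorted CD4+) had 2 QuantSeq libraries each. The TH2 group was sorted CD4+hCD2+, with 4 QuantSeq libraries of the same genotype label as TFH2 and 2 RNA-seq libraries labelled wild type IL-4BacTg. Naive cells (CD4+CD62L+CD44-CD25-) of wild type mice gave 2 RNA-seq libraries. OTII Tg is a T cell receptor transgene specific for an ovalbumin peptide, and Cd4cre is active in CD8 as well as CD4 T cells because both arise from Cd4-expressing thymocytes. IL-4BacTg is not explained further in the labels, and no immunisation is described in the labels. TFH2 and QuantSeq TH2 libraries share the genotype label and differ in gate. Genotype differs from TH2 in the TFH, Bcl6KO, Il4KO and naive groups, and gate differs too except in Bcl6KO. Cell type and genotype therefore cannot be told apart where TFH or Il4KO cells are set against TH2 cells. The same holds where TFH or TH2 cells are set against naive cells, whose genotype label differs from both. The labels do not say which libraries came from separate mice.

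Promoter sequence is shown for 4 members because their levels separated the groups most clearly or because they form the core of the granule. Each line holds the 250 bases before the RefSeq start in GRCm38.p6, read 5′ to 3′ on the gene's strand, with matches to any of 6 motifs in capitals. The windows are chr13:113100982-113101231 on the minus strand for Gzma, chr14:56262335-56262584 on the minus strand for Gzmb, chr10:61297586-61297835 on the plus strand for Prf1 and chr7:43436888-43437137 on the plus strand for Nkg7.
Gzma: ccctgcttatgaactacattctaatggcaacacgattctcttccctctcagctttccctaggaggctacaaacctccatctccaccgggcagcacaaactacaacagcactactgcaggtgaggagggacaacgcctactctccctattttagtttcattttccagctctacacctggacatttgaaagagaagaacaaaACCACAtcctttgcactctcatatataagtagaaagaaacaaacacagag
Gzmb: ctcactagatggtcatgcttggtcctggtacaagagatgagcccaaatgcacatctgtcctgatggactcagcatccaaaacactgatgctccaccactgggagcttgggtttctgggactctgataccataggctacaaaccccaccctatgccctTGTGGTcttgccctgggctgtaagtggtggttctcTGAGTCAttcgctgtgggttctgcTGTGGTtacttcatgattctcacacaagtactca
Prf1: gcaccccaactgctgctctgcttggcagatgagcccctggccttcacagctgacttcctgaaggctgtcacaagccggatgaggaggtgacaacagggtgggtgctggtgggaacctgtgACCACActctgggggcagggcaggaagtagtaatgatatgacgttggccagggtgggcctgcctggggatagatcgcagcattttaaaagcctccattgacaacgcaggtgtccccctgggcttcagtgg
Nkg7: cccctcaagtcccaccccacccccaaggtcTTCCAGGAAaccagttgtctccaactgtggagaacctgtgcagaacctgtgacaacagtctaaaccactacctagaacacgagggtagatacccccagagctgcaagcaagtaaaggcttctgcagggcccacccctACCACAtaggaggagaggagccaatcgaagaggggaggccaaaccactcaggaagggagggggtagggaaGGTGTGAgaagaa

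All 6 motifs were searched on both strands. RefSeq promoters were matched for 9 of the 10 members, all but Ctsw. The letters of a RUNX site, TGTGGT, were present in 5 of these 9, namely Gzma, Gzmb, Gzmc, Prf1 and Nkg7, and in 14.0% of all 32851 promoters of this length. In Gzmb they stood at -93 to -88 and again at -34 to -29 from the start, in Gzma at -50 to -45, in Prf1 at -130 to -125 and in Nkg7 at -83 to -78. Those of a T-box site, GGTGTGA, were found in Gzmk and Nkg7 and in 3.33% of all promoters. The GAS element bound by STAT factors, searched as TTCNNNGAA, was found in Nkg7 and in 7.02% of all. Gzmb held the AP-1 letters TGANTCA, as did 6.75% of all. Gzmc held the CRE letters TGACGTCA, as did 1.55% of all. The GATA letters AGATAA, present in 9.99% of all promoters, were found in 0 of the 9, and 0 matches overlapped. A match describes these letters only and is not a measured binding site.

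The members lie on 6 autosomes in GRCm38 with the GENCODE M21 annotation. Gzma (chr13:113093825-113100981) and Gzmk (chr13:113171608-113225908) are neighbours on the minus strand, 70.6 kb apart. Gzmb (chr14:56258838-56262260) and Gzmc (chr14:56231441-56234656) lie 24.2 kb apart on the minus strand, and Serpinb6b (chr13:32965209-32979067) and Serpinb9 (chr13:33003250-33017957) lie 24.2 kb apart on the plus strand. Prf1 is at chr10:61297833-61304680, Nkg7 at chr7:43437073-43438249, Ctsw at chr19:5465043-5468507 and Fasl at chr1:161780689-161788495. Reads of close relatives could be split or lost for some members. Of the 50-base stretches in the main transcript, 4.14% of those of Gzmc were shared with other genes, most with Gzme, 3.13% of those of Serpinb6b, most with Serpinb6c, and 0.388% of those of Serpinb9, most with Serpinb9b. The annotated span of Gzmk overlaps Esm1 over 8440 bases, and Ctsw overlaps Fibp over 9 bases.

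Depth was 1.835 to 4.442 M counts per QuantSeq library and 36.05 to 107.4 M per RNA-seq library (M, 1e6). Levels are given as CPM, the counts scaled to 1e6 counts on named genes, and 3 counts correspond to between 0.675 and 1.64 CPM in QuantSeq and between 0.0842 and 0.239 CPM in RNA-seq. All 5 markers of CD4 T cells were detected in every library. QuantSeq libraries of a group differed far more than RNA-seq libraries, with a biological coefficient of variation of 1.26 against 0.0879. In bulk samples fewer cells of a type and less RNA per cell cannot be told apart, and the p-values rest on differences among libraries that may be technical repeats. A lone RNA-seq library labelled TH2 from IL-4BacTg x OTII Tg mice and a lone one labelled TFH2 CXCR5hi went against their labels in their marker genes. The library labelled TFH2 had 14 counts of Cxcr5 and 7164 of Il4ra, whereas the library labelled TH2 had 1998 counts of Cxcr5 and 420 of Il4ra. Neither entered a comparison between groups, and the number of members passing the test was the same without them, 7, 7 and 8 in the RNA-seq comparisons described next.

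RNA-seq compared TFH and TH2 cells with naive cells and with each other, and it showed that TFH cells held almost no Gzma or Gzmb while TH2 cells carried very high levels of both. Prf1 went the other way, being high in naive cells and near 0 in both helper types. In TH2 relative to naive cells 6 members were higher and 1 was lower, where 33.9% of all 17013 genes tested were higher and 31.9% lower. TFH cells relative to naive cells had 4 members higher and 3 lower, where 29.6% of all genes were higher and 27.6% lower. TFH cells relative to TH2 cells had 2 members higher and 6 lower, where 30.8% of all genes were higher and 31% lower. In either direction 65.8%, 57.2% and 61.8% of all genes passed, so the shares of members called lie near or not far above the background and the sizes of the differences carry the description. A gene counts as passing at an adjusted p under 0.05 in edgeR's quasi-likelihood test, adjusted over all genes, and differences are log2 ratios with their standard error. With 2 libraries per group, a lack of overlap between RNA-seq groups only describes the levels. The share of all genes without overlap was not computed for RNA-seq.

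Gzmb, the granzyme that cleaves after aspartate, had 0.182 and 0.261 CPM in the TFH libraries. The TH2 libraries had 2712 and 2358 CPM of Gzmb, and the naive libraries had 0.283 and 0.0842 CPM. Every TH2 library was thus far above every TFH and naive library, and the TFH and naive libraries overlapped. The log2 ratio was 13.77 ± 0.22 for TH2 over naive cells (adjusted p = 6.15e-12) and -13.53 ± 0.23 for TFH over TH2 cells (adjusted p = 5.88e-12). TFH over naive cells gave 0.24 ± 0.72 (adjusted p = 0.804).

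Gzma, a granzyme of trypsin-like specificity, followed the same order with 0.400 and 0.156 CPM in TFH libraries. It had 1223 and 963 CPM in TH2 libraries and 0.0944 and 0.224 CPM in naive libraries. The TH2 libraries stood far above both other groups, which overlapped. The ratio of TH2 over naive cells was 12.68 ± 0.27 (adjusted p = 2.59e-10), and that of TFH over TH2 cells was -11.85 ± 0.26 (adjusted p = 3.21e-10). Per kilobase of transcript, Gzmb at 1765 and Gzma at 1245 CPM per kb were the most abundant of the 10 members in TH2 cells, followed by Ctsw at 29.7 CPM per kb.

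Gzmc, the neighbour of Gzmb, had 0.255 and 0.209 CPM in TFH libraries. Its level was 4.20 and 4.17 CPM in TH2 libraries and 0.535 and 0.449 CPM in naive libraries. No groups overlapped, and TFH libraries were the lowest. TH2 over naive cells gave 3.09 ± 0.25 (adjusted p = 7.25e-07) and TFH over TH2 cells -4.16 ± 0.30 (adjusted p = 2.95e-07). The lower level in TFH than in naive cells, -1.06 ± 0.37 (adjusted p = 0.043), passed in 5 of 11 settings with adjusted p between 0.0372 and 0.155. It was lost when any library of either group was left out, with 0.153 and 0.0566 without naive libraries 1 and 2 and 0.108 and 0.124 without TFH libraries 1 and 2.

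Gzmk, another granzyme of trypsin-like specificity, had its highest RNA-seq level in TFH cells, at 1.42 and 0.938 CPM (39 and 18 counts). TH2 libraries had 0 and 0 counts, and naive libraries had 1 and 3 counts. TFH libraries thus lay above all others, although the level was low. TFH cells were at least 9.27-fold higher than TH2 cells when each empty library is set to 3 counts (adjusted p = 0.000118), and their log2 ratio over naive cells was 4.20 ± 0.64 (adjusted p = 0.00026). The difference between TH2 and naive cells did not pass (adjusted p = 0.107).

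Prf1, which encodes the pore without which granzymes cannot enter a target, had 0.291 and 0.261 CPM in TFH libraries. It had 0.357 and 0.481 CPM in TH2 libraries and 29.7 and 30.1 CPM in naive libraries. Both helper types lay far below naive cells, and TFH lay just below TH2. The ratio over naive cells was -6.74 ± 0.19 for TFH (adjusted p = 2.05e-10) and -6.12 ± 0.18 for TH2 cells (adjusted p = 1.45e-10), and TFH over TH2 cells gave -0.62 ± 0.32 (adjusted p = 0.275). In TH2 cells Prf1 reached 0.213 CPM per kb beside 1765 for Gzmb, whereas in naive cells it was the second most abundant member at 15.2 CPM per kb, after Ctsw at 26.2.

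**Figure D1:**
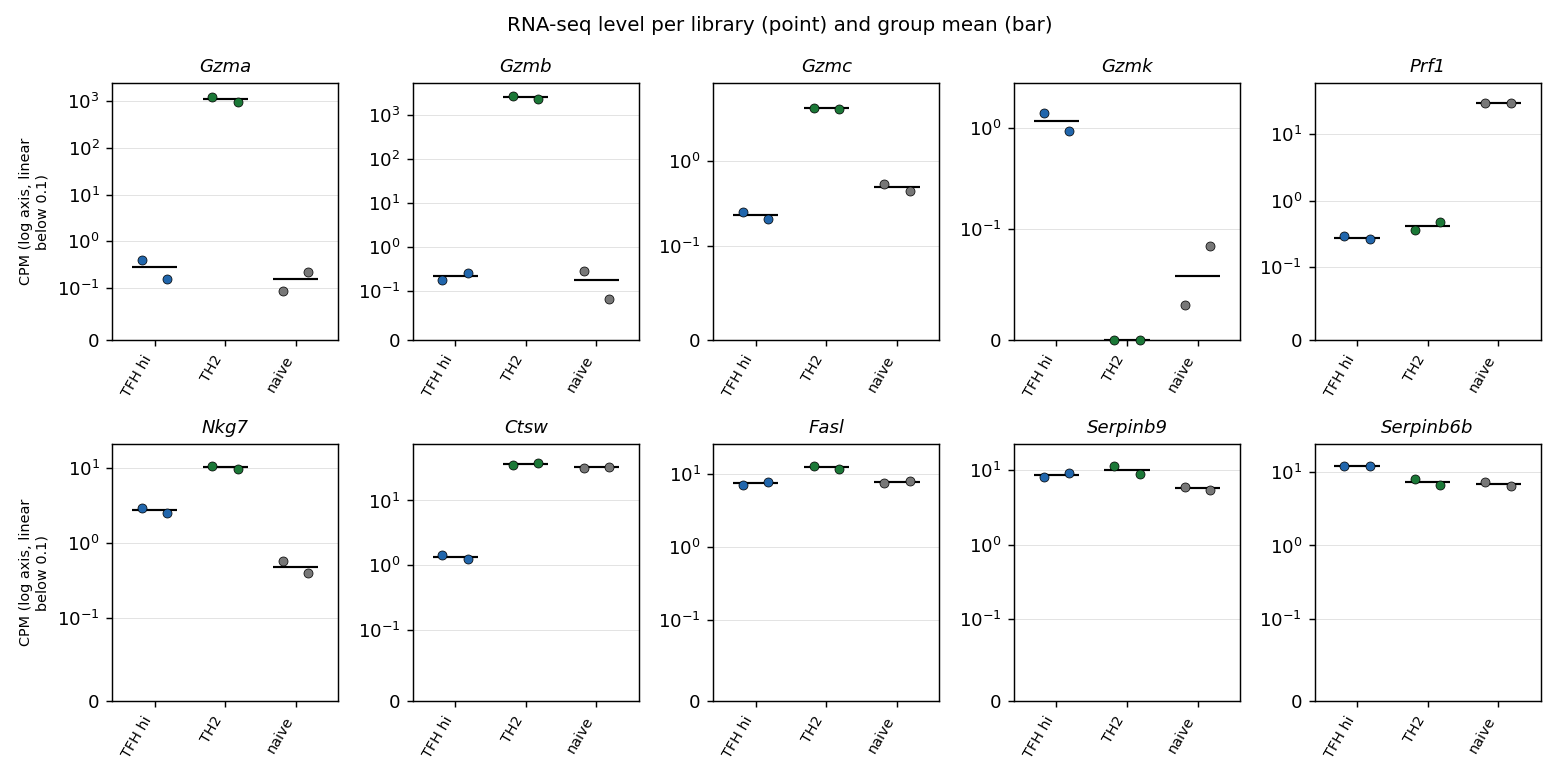
RNA-seq level of each member in CPM (log axis, linear below 0.1) for TFH CXCR5hi, TH2 and naive cells, with 1 point per library and a bar at the mean. Gzma and Gzmb stay at 0.400 CPM or less in TFH and naive libraries and reach 963 CPM or more in both TH2 libraries, while Prf1 is near 30.1 CPM in naive libraries only.

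Nkg7, a granule membrane protein needed for degranulation, had 2.91 and 2.50 CPM in TFH libraries. The level was 10.4 and 9.78 CPM in TH2 libraries and 0.567 and 0.393 CPM in naive libraries. No groups overlapped, and both helper types stood above naive cells. TH2 over naive cells gave 4.41 ± 0.21 (adjusted p = 6.87e-09), TFH over naive cells 2.48 ± 0.23 (adjusted p = 3.17e-06) and TFH over TH2 cells -1.93 ± 0.17 (adjusted p = 1.78e-06).

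Ctsw, which encodes the cysteine protease cathepsin W of cytotoxic lymphocytes, was at 1.42 and 1.25 CPM in TFH libraries. It was at 36.0 and 37.8 CPM in TH2 libraries and at 32.2 and 32.9 CPM in naive libraries. TFH libraries were the low ones, and TH2 and naive libraries were close together. TFH cells gave -4.61 ± 0.12 over naive (adjusted p = 1.09e-10) and -4.80 ± 0.12 over TH2 cells (adjusted p = 4.52e-11), and TH2 over naive cells gave 0.20 ± 0.08 (adjusted p = 0.0556, 0.0431 to 0.290 over the settings).

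Fasl, the ligand of Fas, averaged 7.33 ± 0.545 CPM in TFH, 12.2 ± 0.784 CPM in TH2 and 7.73 ± 0.296 CPM in naive libraries (SD, n = 2 each). TH2 libraries were above all others, and TFH and naive libraries overlapped. The ratio was 0.67 ± 0.13 for TH2 over naive (adjusted p = 0.0007), -0.78 ± 0.13 for TFH over TH2 (adjusted p = 0.00033) and -0.10 ± 0.13 for TFH over naive cells (adjusted p = 0.535).

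The inhibitors differed by less than 1 on the log2 scale. Serpinb9, whose protein blocks granzyme B, averaged 8.60 ± 0.743 CPM in TFH, 10.1 ± 1.79 CPM in TH2 and 5.74 ± 0.340 CPM in naive libraries (SD, n = 2 each). Its ratio was 0.83 ± 0.15 for TH2 over naive (adjusted p = 0.000548) and -0.28 ± 0.15 for TFH over TH2 cells (adjusted p = 0.142). That of TFH over naive cells, 0.56 ± 0.16 (adjusted p = 0.00959), passed in 8 of 11 settings with adjusted p between 0.00108 and 0.112, and was lost without naive library 2 (0.078) and without TFH library 2 (0.112). Serpinb6b, whose protein inhibits mouse granzyme A, had 11.9 ± 0.0338 CPM in TFH, 7.28 ± 0.945 CPM in TH2 and 6.80 ± 0.615 CPM in naive libraries (SD, n = 2 each). It was higher in TFH cells, by 0.79 ± 0.14 over naive (adjusted p = 0.000534) and 0.67 ± 0.14 over TH2 cells (adjusted p = 0.00151), and TH2 over naive cells gave 0.11 ± 0.14 (adjusted p = 0.514). In TFH cells Serpinb6b was the most abundant member per kilobase, at 5.43 CPM per kb.

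**Figure D2:**
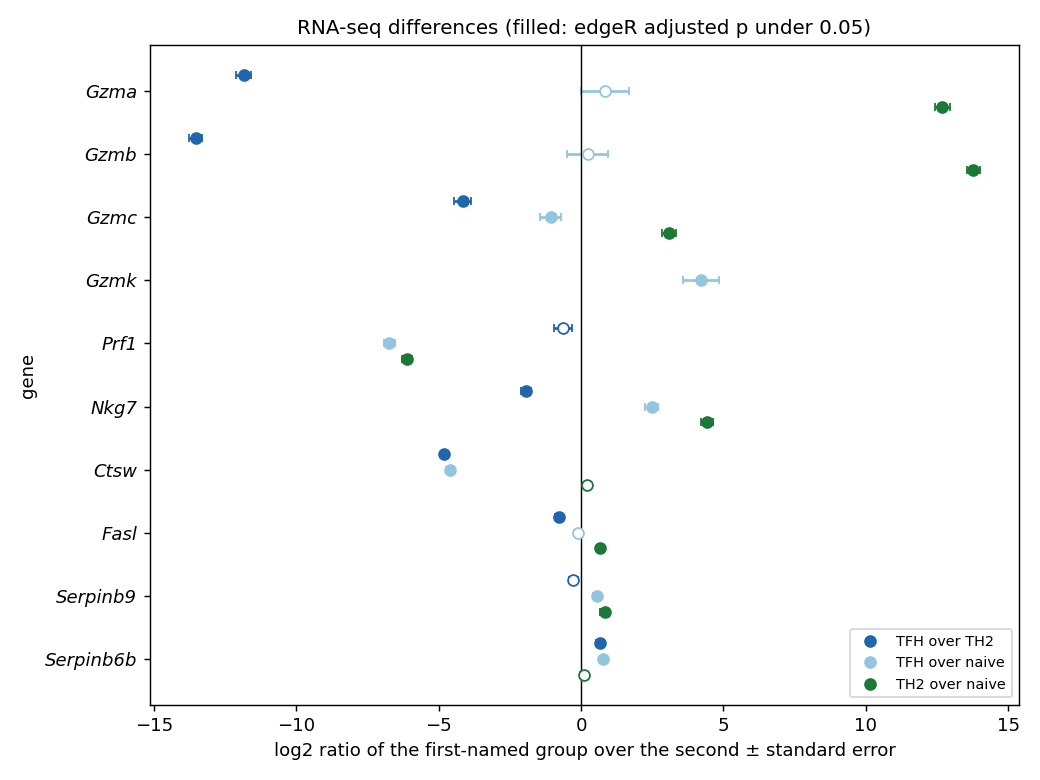
RNA-seq log2 ratio with its standard error for each member in 3 comparisons, filled where edgeR's adjusted p was under 0.05. Gzma and Gzmb lie beyond 11 on either side for the comparisons with TH2, the inhibitors stay within 1, and no point is drawn for Gzmk where TH2 had 0 counts.

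Markers of other cell types moved with some of these groups. The 7 markers of CD8 and NK cells summed to 64.8 to 69.6 CPM in TFH, 10.9 to 12.1 CPM in TH2 and 14.8 to 15.4 CPM in naive libraries, with Klra8 at 0 in all of these groups. In TFH cells most of the sum was Klrb1c, at 51.2 and 47.1 CPM. Cd8b1 averaged 17.6 ± 0.235 CPM in TFH, 11.1 ± 0.880 CPM in TH2 and 14.3 ± 0.446 CPM in naive libraries (SD, n = 2 each). Most of the sum in TH2 and naive libraries was Cd8b1. The sums thus rest on different markers, and their order is not set against that of Gzma and Gzmb. The 5 basophil and mast cell markers summed to 0.0521 to 0.109 CPM in TFH, 47.1 to 58.8 CPM in TH2 and 0.472 to 0.561 CPM in naive libraries. Nearly all of the TH2 sum was Cpa3, at 58.5 and 46.8 CPM, while Fcer1a, Ms4a2 and Prss34 were at 0 in TH2. Their part in the results was not tested.

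In QuantSeq the granzymes were measured in more groups, and Gzma was lower in every follicular library than in any other. All 14 TFH2 and TFH libraries lay between 0 and 31.0 CPM, with a median of 0.202 CPM and 7 libraries at 0. Those with counts had 31.0 CPM in TFH2 CXCR5lo, 0.675 CPM in TFH2 CXCR5int, 0.404 and 18.3 CPM in TFH2 CXCR5hi, 4.11 CPM in TFH CXCR5lo, 10.8 CPM in TFH CXCR5int and 1.49 CPM in TFH CXCR5hi. Bcl6KO libraries had 388 and 239 CPM, Il4KO libraries 184 and 293 CPM and TH2 libraries 885, 672, 79.2 and 108 CPM. These 8 libraries, with a median of 266 CPM, did not overlap with those of follicular cells. The share of all genes that split these libraries in the same way was not computed.

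Gzmb was sparse in QuantSeq, with 398 counts in 9 of 22 libraries. Among follicular cells it was found in CXCR5lo, at 6.69 and 1.09 CPM in TFH2 and 26.6, 0.458 and 0 CPM in TFH libraries, and in 1 CXCR5int TFH library at 2.47 CPM. All 5 CXCR5hi libraries of TFH2 and TFH cells were at 0. Bcl6KO libraries had 3.84 and 8.31 CPM, Il4KO libraries 0 and 0 CPM and TH2 libraries 32.8, 52.3, 0 and 0 CPM, so the TH2 libraries split into a pair with Gzmb and a pair without.

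Gzmc was found in 2 QuantSeq libraries, TFH2 CXCR5lo library 1 at 19.0 CPM (54 counts) and TH2 library 1 at 6.24 CPM (16 counts). Gzmk was likewise found in 2, TFH CXCR5lo library 1 at 8.77 CPM (32 counts) and TH2 library 4 at 22.7 CPM (42 counts). Each of these signals therefore came from 1 library of its group. Prf1 was at 0 in all 22 libraries. With 3 counts worth at least 0.675 CPM, a level such as the 0.261 to 0.481 CPM of the RNA-seq helper cells lies below 3 counts in any single library. Whether all 22 libraries together would have shown it was not tested, and CPM of the 2 assays may not match.

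**Figure D3:**
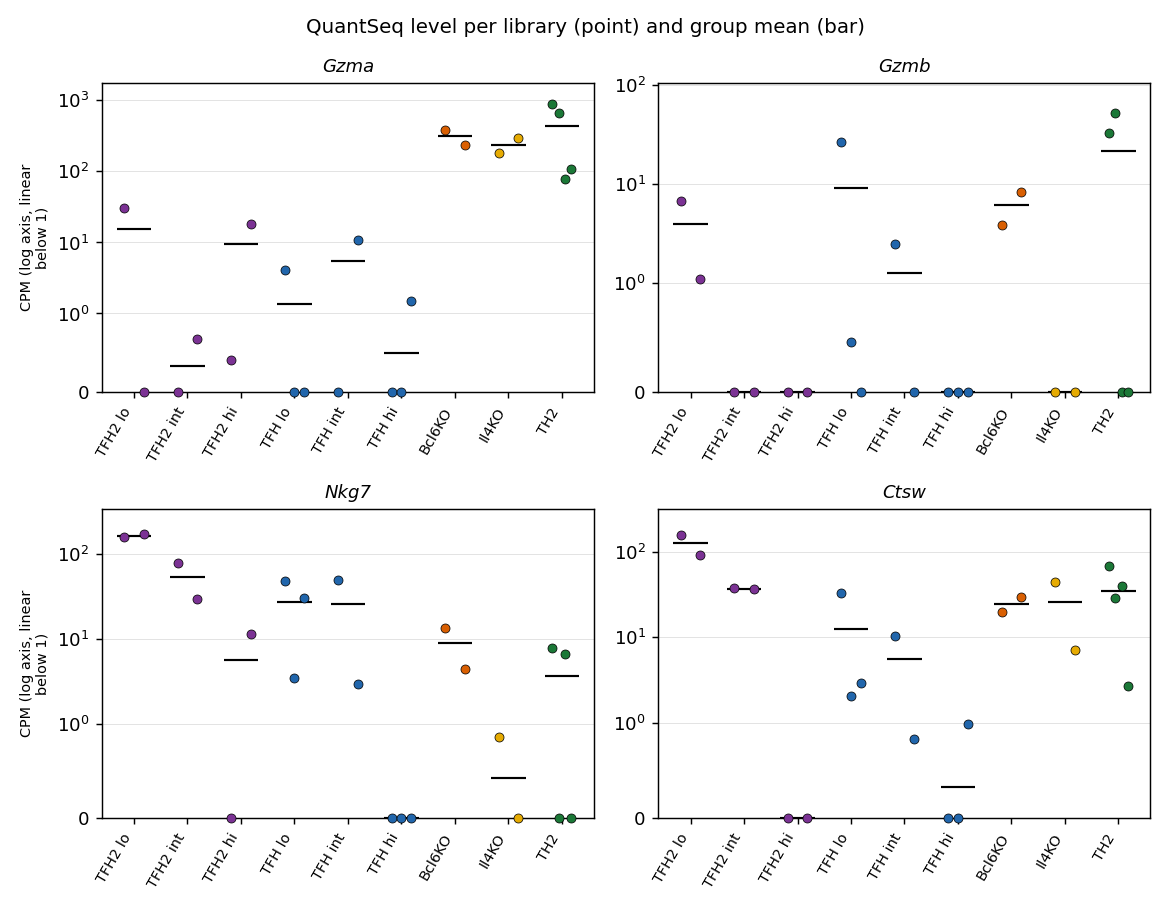
QuantSeq level of Gzma, Gzmb, Nkg7 and Ctsw in CPM (log axis, linear below 1) in 9 groups, with 1 point per library and a bar at the mean. Gzma lies at 31.0 CPM or less in every TFH2 and TFH library and at 79.2 CPM or more in every Bcl6KO, Il4KO and TH2 library, while Nkg7 and Ctsw are lower in every CXCR5hi than in every CXCR5lo library of the same cell type.

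Nkg7 was highest on average in the CXCR5lo and CXCR5int gates of follicular cells, where Gzma was low, but not in CXCR5hi. TFH2 libraries had 157 and 169 CPM in CXCR5lo, 77.3 and 29.7 CPM in CXCR5int and 0 and 11.4 CPM in CXCR5hi. The TFH libraries had 48.5, 3.43 and 30.3 CPM in CXCR5lo, 48.7 and 2.91 CPM in CXCR5int and 0, 0 and 0 CPM in CXCR5hi. In both cell types the CXCR5hi libraries lay below every CXCR5lo library. So did 4.48% of all genes in TFH cells and 12.8% in TFH2 cells, which had 2 libraries per gate. Bcl6KO libraries had 13.5 and 4.40 CPM, Il4KO libraries 0.861 and 0 CPM and TH2 libraries 7.80, 0, 6.63 and 0 CPM, all under those of TFH2 CXCR5lo and CXCR5int cells.

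Ctsw followed the same order along the gates, with 158 and 91.6 CPM in TFH2 CXCR5lo, 37.6 and 36.7 CPM in CXCR5int and 0 and 0 CPM in CXCR5hi libraries. In TFH cells it was at 32.6, 2.06 and 2.93 CPM in CXCR5lo, 10.4 and 0.831 CPM in CXCR5int and 0, 0 and 0.992 CPM in CXCR5hi libraries. Here too, no CXCR5hi library reached a CXCR5lo library of its cell type, a split with the shares of all genes given for Nkg7. Outside follicular cells it was at 19.9 and 29.8 CPM in Bcl6KO, 44.8 and 7.18 CPM in Il4KO and 68.2, 28.7, 39.4 and 2.70 CPM in TH2 libraries. The neighbouring Fibp, which overlaps it by a few bases on the other strand, was at 28.7, 46.9 and 27.8 CPM in the TFH CXCR5hi libraries that held almost no Ctsw.

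Fasl averaged 15.6 ± 4.14 CPM in TFH2 CXCR5lo, 9.68 ± 13.7 CPM in CXCR5int and 5.13 ± 7.25 CPM in CXCR5hi libraries (SD, n = 2 each). In TFH cells it averaged 2.70 ± 4.40 CPM in CXCR5lo (SD, n = 3) and was at 0 in all CXCR5int and CXCR5hi libraries. Bcl6KO libraries averaged 16.6 ± 14.5 CPM and Il4KO libraries 1.46 ± 1.60 CPM (SD, n = 2 each), and TH2 libraries averaged 3.37 ± 6.31 CPM (SD, n = 4). The spread within most of these groups was as large as the mean.

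The inhibitors were present in all groups. Serpinb9 was highest on average in TFH CXCR5int cells, at 14.8 ± 3.14 CPM (SD, n = 2), and ranged from 0 to 21.1 CPM over all libraries with a median of 4.39 CPM. Serpinb6b was highest in TFH2 CXCR5lo cells, at 73.4 ± 30.6 CPM (SD, n = 2), and lowest in Bcl6KO cells at 3.36 ± 4.76 and Il4KO cells at 5.18 ± 3.63 CPM (SD, n = 2 each). The order of the remaining groups lay within the spread between libraries.

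**Figure D4:**
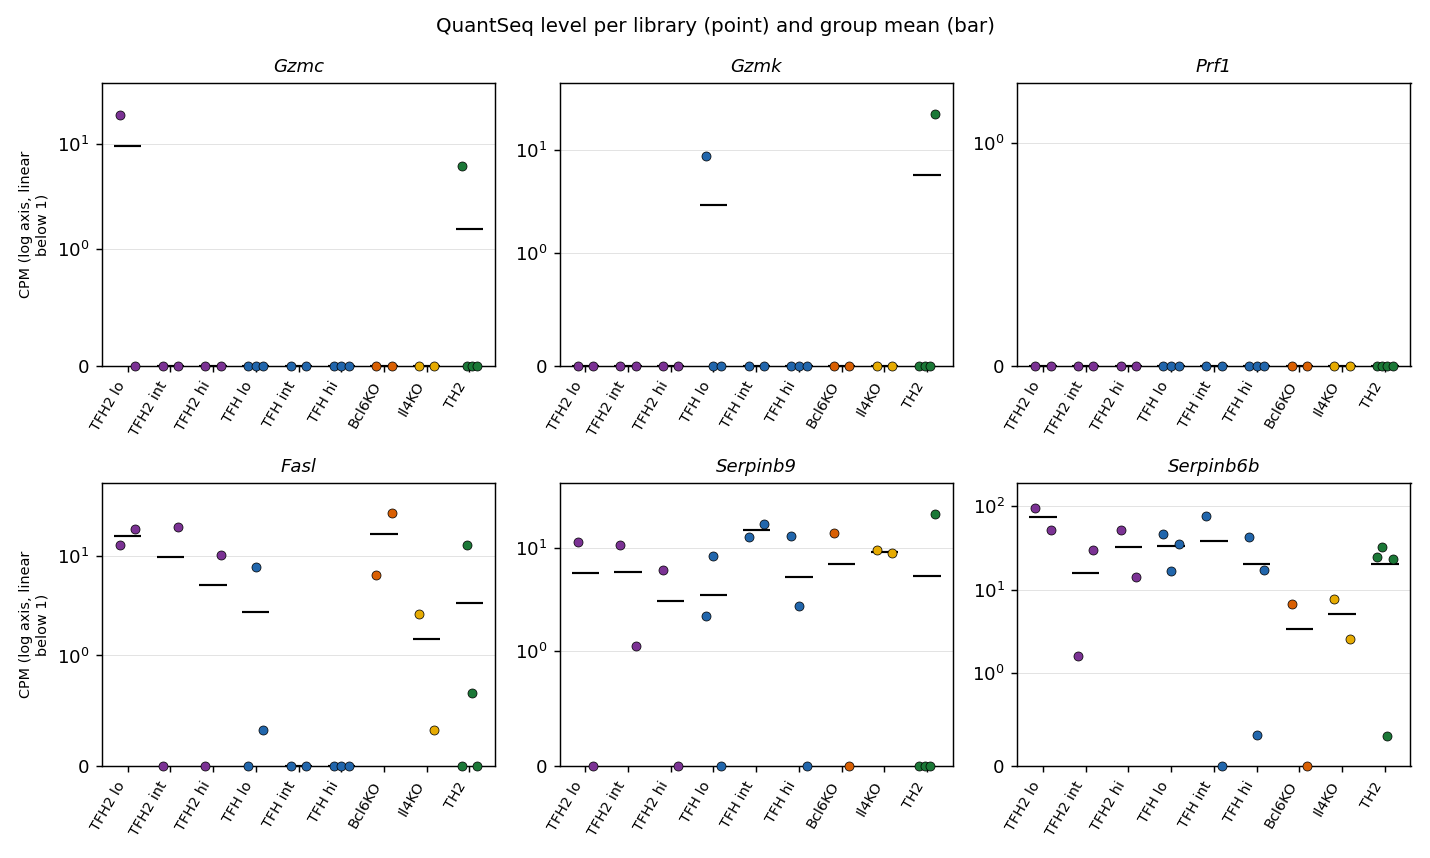
QuantSeq level of Gzmc, Gzmk, Prf1, Fasl, Serpinb9 and Serpinb6b in CPM (log axis, linear below 1) in 9 groups, with 1 point per library and a bar at the mean. Gzmc and Gzmk each appear in 2 libraries, Prf1 is at 0 in all 22, and both serpin genes overlap between most groups.

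TFH CXCR5hi cells were compared with TH2 cells to ask how follicular and type 2 helper cells differ. All 3 members that passed were lower in TFH CXCR5hi cells, out of 9 tested, where 3.51% of 14383 genes passed, 1.46% lower and 2.05% higher. Gzma averaged 0.496 ± 0.859 CPM in TFH CXCR5hi (SD, n = 3) and 436 ± 405 CPM in TH2 libraries (SD, n = 4), a log2 ratio of -9.48 ± 2.33 (adjusted p = 0.0393). Ctsw averaged 0.331 ± 0.573 CPM in TFH CXCR5hi and 34.8 ± 27.1 CPM in TH2 libraries, a ratio of -6.44 ± 1.61 (adjusted p = 0.00583). Nkg7 was at least 3.88-fold lower, with TFH CXCR5hi libraries at 0 (adjusted p = 0.0448), although 2 of the TH2 libraries were also at 0. Gzmb was at least 22.9-fold lower by the TH2 mean, although 2 of the TH2 libraries were also at 0, and did not pass (adjusted p = 0.187). Serpinb9 and Serpinb6b gave 0.01 ± 2.43 and 0.02 ± 1.31 (adjusted p = 1.00 for both).

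These QuantSeq calls rested on few libraries. With 1 library left out the log2 ratio lay between -13.35 and -8.90 for Gzma, between -9.70 and -5.89 for Ctsw and between -6.91 and -5.82 for Nkg7. The Gzma call held in 6 of 12 settings, with adjusted p between 0.000174 and 0.164, and was lost without TH2 library 1 (0.0775) or 2 (0.0728) and without TFH CXCR5hi library 1 (0.148), 2 (0.164) or 3 (0.120). The Nkg7 call held in 6 of 11 settings, with adjusted p between 0.0124 and 0.162, and was lost without TH2 library 1 (0.0819) or 3 (0.0616) and without TFH CXCR5hi library 1 (0.134), 2 (0.162) or 3 (0.145). For Ctsw it held in 10 of 12 settings, with adjusted p between 3.23e-05 and 0.0695, and was lost without TFH CXCR5hi library 2 (0.0569). Without library 3, the one with counts of Ctsw and Gzma, the TFH CXCR5hi group was empty for both. RNA-seq also had Gzma, Ctsw and Nkg7 lower in TFH than in TH2 cells, but in differing groups. Its TH2 libraries had another genotype label, and TFH libraries held Ddx3y in RNA-seq and Xist in QuantSeq. Gzmb in TH2 cells was at 2535 ± 250 CPM in RNA-seq, above Gzma at 1093 ± 184 CPM (SD, n = 2). In QuantSeq it was at 21.3 ± 25.8 CPM, below Gzma at 436 ± 405 CPM (SD, n = 4). The cause of this mismatch was not tested.

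TFH CXCR5lo and TH2 cells shared the TH2 libraries with that comparison, and 0 of the 9 members passed edgeR's test, where 2.22% of all genes did, 1.54% higher and 0.681% lower. At an unadjusted p under 0.05 there were 2 members, and DESeq2 called 1. The nearest was Gzma, at 1.37 ± 2.37 CPM in TFH CXCR5lo (SD, n = 3) against 436 ± 405 CPM in TH2 libraries (SD, n = 4), with no overlap, a log2 ratio of -8.28 ± 2.16 and an adjusted p of 0.0754 (0.00177 to 0.257 over the settings). No overlap with a lower level in TFH CXCR5lo cells was found for 4.42% of all genes. Nkg7 gave 2.88 ± 1.29 (adjusted p = 0.352) and Ctsw -1.50 ± 1.22 (adjusted p = 0.665).

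TFH2 cells of all gates were set against the same TH2 libraries. Gzma was the member of the 9 that passed, where 4.35% of all genes did, 2.32% lower and 2.03% higher. It averaged 8.40 ± 13.2 CPM in TFH2 (SD, n = 6) and 436 ± 405 CPM in TH2 libraries (SD, n = 4), and the groups did not overlap. The log2 ratio was -6.79 ± 1.49 (adjusted p = 0.0162), and it lay between -9.66 and -6.20 when 1 library was left out. No overlap with a lower level in TFH2 cells was found for 2.48% of all genes. The call held in 9 of 15 settings, with adjusted p between 0.00152 and 0.126, and was lost without TFH2 CXCR5hi library 1 (0.0953) or 2 (0.0524), CXCR5int library 1 (0.126) or 2 (0.110), or CXCR5lo library 2 (0.0788). Gzmb averaged 1.30 ± 2.68 CPM in TFH2 and 21.3 ± 25.8 CPM in TH2 libraries, a ratio of means of 0.0610, and did not pass (adjusted p = 0.0846). Its fitted log2 ratio is not given because the CXCR5int and CXCR5hi gates were empty. Nkg7 gave 3.26 ± 1.22 (adjusted p = 0.127). For Ctsw the means were 54.0 ± 61.1 CPM in TFH2 and 34.8 ± 27.1 CPM in TH2 libraries while the fitted ratio was -2.64 ± 1.12 (adjusted p = 0.178), because the fit averages the gates on the log scale and CXCR5hi was empty.

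The CXCR5 gates were compared within each cell type, and there 1 member passed in each, Nkg7 in TFH and Ctsw in TFH2 cells. In TFH cells Nkg7 was at least 29.5-fold lower in CXCR5hi, where all libraries were at 0, than in CXCR5lo libraries at 27.4 ± 22.7 CPM (SD, n = 3, adjusted p = 0.0255). It was the member of the 9 that passed, where 0.139% of all genes did, 0.111% lower and 0.0278% higher. The call held in 6 of 11 settings, with adjusted p between 0.000839 and 0.626, and was lost without CXCR5hi library 1 (0.133), 2 (0.177) or 3 (0.126) and without CXCR5lo library 3 (0.0517). Ctsw averaged 0.331 ± 0.573 CPM in TFH CXCR5hi and 12.5 ± 17.4 CPM in CXCR5lo libraries (SD, n = 3 each), without overlap, and its ratio of -4.94 ± 1.54 did not pass (adjusted p = 0.491).

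In TFH2 cells Ctsw was at least 108-fold lower in CXCR5hi, where both libraries were at 0, than in CXCR5lo libraries at 125 ± 47.1 CPM (SD, n = 2, adjusted p = 0.0222). It was the member of the 9 that passed, where 0.153% of all genes did, 0.104% lower and 0.0487% higher. The call held in 6 of 9 settings, with adjusted p between 4e-05 and 0.337, and was lost without CXCR5hi library 1 (0.302) or 2 (0.337). Nkg7 averaged 5.68 ± 8.03 CPM in TFH2 CXCR5hi and 163 ± 8.17 CPM in CXCR5lo libraries (SD, n = 2 each), without overlap, and its ratio of -4.80 ± 1.91 did not pass (adjusted p = 0.842). Whether the change across gates differed between TFH2 and TFH cells was tested directly, and 0 members passed edgeR's test, where 0.0139% of all genes did, all of them higher. At an unadjusted p under 0.05 there was 1 member, and DESeq2 called 0. The difference of the changes was 4.57 ± 2.36 for Nkg7 (adjusted p = 0.920) and -6.55 ± 2.85 for Ctsw (adjusted p = 0.908), each fitted with an empty gate.

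TFH2 and TFH cells were compared over all gates and then in CXCR5lo alone. Over all gates 0 of 9 members passed edgeR's test, where 0.647% of all genes did, 0.327% higher and 0.32% lower. At an unadjusted p under 0.05 there were 2 members, and DESeq2 called 1. Nkg7 averaged 74.1 ± 74.0 CPM in TFH2 (SD, n = 6) and 16.7 ± 22.1 CPM in TFH libraries (SD, n = 8), a ratio of means of 4.43 and a fitted log2 ratio of 3.52 ± 1.02 (adjusted p = 0.0824). It passed in 5 of 19 settings, with adjusted p between 0.0153 and 1.00. Fasl averaged 10.1 ± 8.57 CPM in TFH2 and 1.01 ± 2.74 CPM in TFH libraries and did not pass (adjusted p = 0.264). Ctsw averaged 54.0 ± 61.1 CPM in TFH2 and 6.22 ± 11.2 CPM in TFH libraries, with a fitted log2 ratio of 0.88 ± 3.86 (adjusted p = 1.00). Nkg7, Fasl and Ctsw each had at least 1 gate without counts, so their fitted ratios are no bounds, and Gzmb, Gzmc and Gzmk could not be fitted because CXCR5hi was empty in both groups.

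In the CXCR5lo gate 4 of the 9 members were higher in TFH2 cells without overlap, and none of them passed. Nkg7 averaged 163 ± 8.17 CPM in TFH2 (SD, n = 2) and 27.4 ± 22.7 CPM in TFH libraries (SD, n = 3), and Ctsw averaged 125 ± 47.1 CPM in TFH2 and 12.5 ± 17.4 CPM in TFH libraries. For Nkg7, Ctsw, Fasl and Serpinb6b every TFH2 CXCR5lo library was above every TFH CXCR5lo library, as was the case for 9.8% of all genes tested. The log2 ratios were 2.50 ± 1.49 for Nkg7 and 3.26 ± 1.43 for Ctsw (adjusted p = 0.756 for both). Of the 9 members, 0 passed edgeR's test, where 0.132% of all genes did (0.0556% higher and 0.0765% lower), with 1 member at an unadjusted p under 0.05 and 0 called by DESeq2.

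Several other transcripts moved with these gates and cell types. The 7 markers of CD8 and NK cells summed to 25.6 to 66.2 CPM in TFH2 CXCR5lo, 16.0 to 27.1 CPM in CXCR5int and 49.3 to 74.7 CPM in CXCR5hi libraries. In TFH cells they summed to 19.5 to 41.1 CPM in CXCR5lo, 4.16 to 27.9 CPM in CXCR5int and 0 to 13.6 CPM in CXCR5hi libraries, and in TH2 libraries to 0 to 26.9 CPM. Cd8a, Klra8 and Ncr1 were at 0 in all QuantSeq groups. The sum in TFH2 CXCR5hi libraries was all Cd8b1 and Tyrobp. Tyrobp averaged 33.5 ± 20.2 CPM in TFH2 (SD, n = 6) and was at 0 in TH2 libraries (edgeR's adjusted p = 0.0231). Markers of myeloid cells summed to 39.4 to 178 CPM in TFH2 CXCR5lo, 137 to 343 CPM in CXCR5int and 324 to 504 CPM in CXCR5hi libraries, an order opposite to that of Nkg7 and Ctsw. They reached 34.1 to 75.7 CPM in TFH and 0 to 6.96 CPM in TH2 libraries. Erythroid markers summed to 424 to 1636 CPM in TFH2, 40.0 to 343 CPM in TFH and 0 to 39.4 CPM in TH2 libraries, and B cell markers to 58.2 to 635 CPM in TFH2, 22.4 to 79.8 CPM in TFH and 0 to 0.675 CPM in TH2 libraries. Their part in the results was not tested.

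Sex-linked transcripts also separated libraries of different Gzma and Nkg7 level. The TH2 libraries with 885 and 672 CPM of Gzma, and with all of the TH2 Gzmb, held Xist at 337 and 380 CPM. Those with 79.2 and 108 CPM of Gzma, and no Gzmb, held the Y-linked Ddx3y at 97.5 and 28.6 CPM. The first pair is numbered 9 and 10 among the samples and the second 25 and 28, next to the knockouts at 26, 27, 29 and 30. Sex and place in the sample numbering cannot be told apart in this split of TH2 libraries. The TFH2 libraries held Ddx3y at 48.5 to 101 CPM, whereas TFH libraries had none and held Xist at 175 to 532 CPM. Sex and genotype therefore cannot be told apart in the comparison of TFH2 with TFH cells. In RNA-seq the split between TFH and TH2 cells was complete. TFH libraries held Ddx3y at 81.5 and 86.3 CPM and Xist at 0.327 and 0.313 CPM, whereas Xist was at 1195 and 1045 CPM in TH2 and at 583 and 572 CPM in naive libraries, in which Ddx3y did not exceed 0.0630 CPM. Sex and cell type therefore cannot be told apart in the RNA-seq comparisons of TFH with TH2 and with naive cells. Bcl6KO libraries held Xist at 217 and 228 CPM and Il4KO libraries held Ddx3y at 76.9 and 68.6 CPM, and Gzma stayed at 184 CPM or more in all 4 of these libraries. The part of sex in the Gzma level was not tested.

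The knockout groups were set against the TH2 libraries. The targeted genes gave little check of the labels. Bcl6 was at 6.73 and 26.4 CPM in Bcl6KO and at 0.390, 13.2, 1.99 and 5.95 CPM in TH2 libraries, and whether a 3′ tag lies inside the deleted part is not given. Il4 was at 0 and 0.980 CPM in Il4KO and at 0, 0, 13.3 and 0 CPM in TH2 libraries. Of the 9 members tested, 0 passed edgeR's test in Bcl6KO cells, where 0.0209% of all genes did (0.0139% higher and 0.00695% lower), and 0 reached an unadjusted p under 0.05. In Il4KO cells 0 passed, where 0.0695% of all genes did (0.00695% higher and 0.0626% lower), and 1, Gzmb, reached an unadjusted p under 0.05. DESeq2 called 0 members in either knockout.

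Gzma averaged 313 ± 105 CPM in Bcl6KO (SD, n = 2) and 436 ± 405 CPM in TH2 libraries (SD, n = 4), a log2 ratio of -0.50 ± 1.66 (adjusted p = 1.00). In Il4KO libraries it averaged 238 ± 77.2 CPM (SD, n = 2), a ratio of -0.80 ± 1.68 over TH2 cells (adjusted p = 1.00). All 4 knockout libraries lay above TH2 libraries 3 and 4, at 79.2 and 108 CPM, and below TH2 libraries 1 and 2, at 885 and 672 CPM. Gzmb was at least 23.1-fold lower in Il4KO than in TH2 cells, of which 2 libraries were also at 0 (adjusted p = 0.921). The standard errors of these ratios are wide, so differences of several fold in either direction were not detectable.

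The wider pathway was followed in 7 lists of genes that are not members. By RNA-seq 65.8% of all genes passed in TH2 over naive, 57.2% in TFH over naive and 61.8% in TFH over TH2 cells, in either direction. The RNA-seq counts of passing genes in these lists are to be read against those shares and do not by themselves set a list apart. Among 8 genes of granule content and processing, 7 were higher and 1 lower in TH2 than in naive cells by RNA-seq, with a median log2 ratio of 1.39 against 0 over all genes. Cst7, which encodes an inhibitor of lysosomal cathepsins, was 5.42 ± 0.13 higher (adjusted p = 5.13e-11), Srgn, the proteoglycan that packs granzymes, 2.65 ± 0.10 (adjusted p = 7.54e-10) and Lamp2 1.92 ± 0.13 (adjusted p = 4.41e-07). In TFH over naive cells 6 were higher and 1 lower, with a median of 1.34, and Srgn gave 2.85 ± 0.10 (adjusted p = 7.19e-10). TFH over TH2 cells had 1 higher and 2 lower, with a median of -0.18 against -0.01 over all genes. Of these, Cst7 gave -3.18 ± 0.11 (adjusted p = 9.11e-10) and Ctsc, the protease that activates granzymes, -0.74 ± 0.08 (adjusted p = 8e-06). In QuantSeq, TFH CXCR5hi cells had 2 of the 8 higher than TH2 cells and 0 lower, with a median of 0.81 against 0. Srgn averaged 1418 ± 310 CPM in TFH CXCR5hi (SD, n = 3) and 774 ± 160 CPM in TH2 libraries (SD, n = 4), so this granule component was not lower where Gzma was.

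Among 12 genes of granule exocytosis, 5 were higher and 2 lower in TH2 than in naive cells, 8 higher and 1 lower in TFH than in naive cells, and 5 higher and 3 lower in TFH than in TH2 cells. The medians were 0.14, 0.29 and 0.16, against 0, 0 and -0.01 over all genes. Stx11, a syntaxin needed for granule fusion, was at 208 ± 0.661 CPM in TFH, 19.4 ± 1.17 CPM in TH2 and 1.86 ± 0.256 CPM in naive libraries (SD, n = 2 each), and TFH over TH2 cells gave 3.38 ± 0.08 (adjusted p = 3.74e-11). Rab27a, which tethers granules at the membrane, was 1.04 ± 0.07 higher in TFH than in TH2 cells (adjusted p = 1.44e-07). In QuantSeq 1 of the 12 passed in TFH2 over TH2 cells, again Stx11, at 80.3 ± 47.7 CPM in TFH2 (SD, n = 6) and 4.19 ± 8.38 CPM in TH2 libraries (SD, n = 4, adjusted p = 0.0419). In the other QuantSeq comparisons 0 passed. Genes that release granules were thus present in TFH cells that had almost no Gzma or Gzmb.

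Of 8 genes of the death receptor pathway, 3 were higher and 4 lower in TH2 than in naive cells, 3 higher and 3 lower in TFH than in naive cells, and 2 higher and 2 lower in TFH than in TH2 cells, with medians of -0.23, 0.16 and 0.03. Fas itself was 1.86 ± 0.16 higher in TFH than in TH2 cells (adjusted p = 1.16e-06). Of 5 further clade B serpins, 4 were tested in RNA-seq. Serpinb6a had 9.46 ± 0.767 CPM in TFH, 30.0 ± 1.82 CPM in TH2 and 7.17 ± 0.225 CPM in naive libraries (SD, n = 2 each), and TFH over TH2 cells gave -1.69 ± 0.11 (adjusted p = 9.48e-08). The list had 2 higher and 0 lower in TH2 over naive, 1 and 0 in TFH over naive, and 0 and 2 in TFH over TH2 cells. Of both lists, 0 genes passed in QuantSeq.

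Among 10 transcription factors known from cytotoxic lymphocytes, Id2, an inhibitor of E proteins, was lower in TFH than in TH2 cells in both assays. By RNA-seq 6 were higher and 0 lower in TH2 than in naive cells, 6 higher and 4 lower in TFH than in naive cells, and 4 higher and 5 lower in TFH than in TH2 cells, with medians of 1.08, 0.59 and -0.83. Id2 had 22.7 ± 1.25 CPM in TFH, 303 ± 10.5 CPM in TH2 and 40.0 ± 1.70 CPM in naive libraries (SD, n = 2 each). Prdm1, which encodes Blimp-1, was -5.60 ± 0.20 in TFH over TH2 cells (adjusted p = 7.18e-10). Tbx21, which encodes T-bet, went the other way at 4.71 ± 0.32 (adjusted p = 1.66e-07), as did Bhlhe40 at 1.25 ± 0.09 (adjusted p = 2.49e-07).

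In QuantSeq 9 of the 10 were tested, and 2 were lower in TFH CXCR5hi than in TH2 cells and 0 higher. Id2 averaged 92.7 ± 24.7 CPM in TFH CXCR5hi (SD, n = 3) and 1026 ± 180 CPM in TH2 libraries (SD, n = 4), a log2 ratio of -3.48 ± 0.30 (adjusted p = 1.76e-18). Along the gates of TFH2 cells 2 were lower in CXCR5hi than in CXCR5lo. Id2 averaged 146 ± 58.9 CPM in TFH2 CXCR5hi and 824 ± 112 CPM in CXCR5lo libraries, a ratio of -2.44 ± 0.36 (adjusted p = 1.37e-06). Runx3 averaged 16.2 ± 16.0 CPM in TFH2 CXCR5hi and 184 ± 71.8 CPM in CXCR5lo libraries (SD, n = 2 each), a ratio of -3.47 ± 0.58 (adjusted p = 5.3e-05). Both were thus lower in the TFH2 gate whose libraries held no Ctsw. In TFH cells too, Id2 was lower in CXCR5hi, at 92.7 ± 24.7 CPM, than in CXCR5lo libraries, at 223 ± 70.7 CPM (SD, n = 3 each). That ratio was -1.27 ± 0.28 (edgeR's adjusted p = 0.0168), between gates where Ctsw did not pass. Id2 was also higher in TFH2 than in TFH CXCR5lo cells, at 824 ± 112 CPM in TFH2 (SD, n = 2) and 223 ± 70.7 CPM in TFH libraries (SD, n = 3), by 1.80 ± 0.31 (adjusted p = 0.000161). In the knockout comparisons 0 factors passed edgeR's test.

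The remaining granzymes were close to absent. Gzmd, Gzme, Gzmf, Gzmg and Gzmn had 0 counts in every QuantSeq group. Gzmm averaged 0.656 ± 0.105 CPM in TFH, 0.544 ± 0.138 CPM in TH2 and 0.958 ± 0.204 CPM in naive RNA-seq libraries (SD, n = 2 each), and 0 of the 4 granzymes of this list that were tested passed. Of these 4, 3 had an empty group in TFH over naive and in TFH over TH2 cells, and 1 in TH2 over naive cells. For those the test could not decide, because a compared group held no counts. Of 5 cytotoxic cytokines and chemokines, 0 passed in QuantSeq, and by RNA-seq 1 was higher and 1 lower in TH2 than in naive cells, 0 higher and 1 lower in TFH than in naive cells, and 2 higher and 0 lower in TFH than in TH2 cells. All were of low count, and Ifng, which encodes interferon gamma, had 19 counts in TFH, 2 in TH2 and 47 in naive libraries.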

How the data were processed

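QuantSeq and RNA-seq values were the counts deposited by the authors, per gene (55573 IDs) and per transcript (95883 IDs). The submitters' processing notes list the builds mm10, GRCm38.p6 and mm9 and the tools featureCounts 1.6.0, STAR 2.7.0c and Bowtie 0.12.2, without saying which made which table. IDs without a gene name held 0.00617% of QuantSeq and 14.7% of RNA-seq counts and were left out. RNA-seq used the transcript with the most counts per gene, and summing transcripts instead gave 2.52 times the counts.

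Differences came from edgeR 4.0.16 under R 4.3.3 (TMM, robust quasi-likelihood, Benjamini-Hochberg over all genes, at least 10 counts per library and 15 in total by the tool's filter), fitted on all 22 or all 8 libraries. The script was tested on simulated data. Alternatives were DESeq2 1.42.0, its size factors, no filter, the compared groups only, summed transcripts and each library left out; leaving out the lone libraries was chosen after seeing the data. The members and lists were chosen with earlier results of these data known. Genes named were the members, up to 4 passing genes per list and comparison by smallest p, and the 3 genes most correlated with each member.

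CPM denominators were 1.8346 to 4.4424 M counts in QuantSeq and 12.561 to 35.636 M in RNA-seq. Floors of 3 counts cover counting error only, since reads are not independent molecules. Replicates differed beyond sampling noise, with a chi-square per degree of freedom of at least 2.56, and none was merged. One gene of the pathway lists is not reported here.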

Additional observations from a re-analysis of the deposited data

Results flagged for a closer look

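In the QuantSeq TH2 group of 4 libraries, 1 library stood apart from the other 3 for 4 members. Gzmc was at 6.24 CPM in library 1, Gzmk at 22.7 CPM in library 4, Fasl at 12.8 CPM in library 2 and Serpinb9 at 21.1 CPM in library 4. This was the only QuantSeq group with enough libraries to be examined, and 9 members had counts in it. By chance about 1 in 20 sets of continuous values is set apart in this way. That rate does not hold for these 4 members. For Gzmc, Gzmk and Serpinb9 the other 3 libraries were at 0, and for Fasl they were at 0.663 CPM (2 counts) or less.

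Both lone RNA-seq libraries carried members although they entered no comparison. The library labelled TFH2 had 482 CPM of Gzma, 893 CPM of Gzmb, 13.7 CPM of Gzmc, 22.3 CPM of Nkg7, 40.5 CPM of Ctsw, 24.8 CPM of Serpinb9 and 19.0 CPM of Serpinb6b. The library labelled TH2 had 7.18 CPM of Gzma, 11.5 CPM of Gzmb, 14.8 CPM of Nkg7, 15.2 CPM of Serpinb9 and 17.0 CPM of Serpinb6b. Their markers went against their labels, so no direction is drawn from them.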

How the results depend on the processing

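The ratios of members that had passed were recomputed under alternatives. Over both assays 248 kept their direction and side of the threshold, 36 kept the direction but no longer passed, and 0 reversed. Every QuantSeq call no longer passed in some alternatives. For TFH CXCR5hi over TH2 these were 6 for Gzma, 5 for Nkg7 and 2 for Ctsw. In RNA-seq this was so only for Gzmc and Serpinb9 in TFH over naive cells. The causes were not tested. DESeq2 called 935 genes for TFH CXCR5hi over TH2, 651 for TFH CXCR5lo over TH2 (1 member), 1098 for TFH2 over TH2 (2 members), 274 for TFH2 over TFH (1 member), 107 for TFH2 over TFH in CXCR5lo, 83 for TFH CXCR5hi over lo (2 members), 127 for TFH2 CXCR5hi over lo, 35 for the difference between these changes, 126 for Bcl6KO and 83 for Il4KO over TH2. Without the filter the counts were 142 (1 member) for TFH2 over TFH, 35 in CXCR5lo, 33 and 36 for CXCR5hi over lo in TFH and TFH2, 4 for their difference, 17 for Bcl6KO and 38 for Il4KO. Fitting only the groups compared gave 1 member for TFH CXCR5hi over TH2, 0 for TFH2 over TH2 and 1 for TFH2 over TFH, 7 genes for TFH2 over TFH in CXCR5lo, 7 genes and 0 members for TFH CXCR5hi over lo, 0 genes and 0 members for TFH2 CXCR5hi over lo, 1 gene for Bcl6KO and 0 for Il4KO.

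Leaving out 1 library at a time gave 336 to 463 genes and 0 to 3 members for TFH CXCR5hi over TH2, 250 to 313 genes for TFH CXCR5lo over TH2, 553 to 731 genes and 0 to 1 members for TFH2 over TH2, 80 to 214 genes and 0 to 1 members for TFH2 over TFH, 13 to 118 genes in CXCR5lo, 13 to 29 genes and 0 to 1 members for TFH CXCR5hi over lo, 21 to 111 genes and 0 to 1 members for TFH2 CXCR5hi over lo, 1 to 43 genes for their difference, 7 to 56 for Bcl6KO and 10 to 31 for Il4KO. In RNA-seq it gave 7 to 8 members for TH2 over naive, 5 to 6 for TFH over naive and 8 to 9 for TFH over TH2, the lone remaining library being assumed to vary like the other groups. No paired analysis was possible because the labels give each library a running number of its own and no replicate number shared between groups. How far depth limits the QuantSeq values was not tested.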

Other observations

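For each member with at least 10 counts in at least 5 QuantSeq libraries, the genes most like it were found by Spearman's rho of log2 CPM over the 22 libraries, which share their groups and depths, so rho is a description. They were Ctla2a (0.891), Txnip (0.876) and Lrrc32 (0.871) for Gzma, and Pimreg (0.939), Gm48882 (0.748) and Gm43187 (0.732) for Gzmb. For Nkg7 they were Lgals7 (0.821), Tnfrsf4 (0.786) and Zbtb32 (0.751), and for Ctsw Foxd2os (0.818), Fabp5 (0.767) and Sun1 (0.763). For Fasl they were Eny2 (0.840), Mir17hg (0.810) and Gm9432 (0.806). The serpins were matched by Gm5865 (0.737), Igsf3 (0.730) and Atg4a (0.722) for Serpinb9 and by Tk1 (0.804), Gm10177 (0.792) and Iba57 (0.775) for Serpinb6b.

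The lone RNA-seq library labelled TFH2 also held granzymes that were near or at 0 in the other RNA-seq libraries, with 0.955 CPM of Gzmd, 0.876 CPM of Gzme, 4.06 CPM of Gzmf and 3.03 CPM of Gzmg.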
